A study of Mus musculus with 12 samples.

Results

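The homeostatic and membrane-bound chemokines were followed in enteric nervous system (ENS) primary cultures as 7 genes. They were taken by gene symbol and by no rule on measured values, though with earlier results of these data known. They are the ligand genes Cxcl12, Cxcl13, Cxcl14, Cxcl16 and Cx3cl1 and the receptor genes Cxcr4 and Ackr3. Each was read by 1 transcript cluster, a set of probes for 1 gene, among 22206 clusters and 19505 gene symbols. The cultures came from gut of mouse embryos (e14.5 by the sample labels) of the Sox10flox line, a modification that all groups share and that the methods give as of no relevance here. They hold mixed cells of the gut wall, of which only a part is neuronal or glial. LPS, a component of the bacterial outer membrane that activates toll-like receptor signalling, and 6-mercaptopurine (6-MP), a thiopurine drug used in inflammatory bowel disease, were combined on 12 Clariom S arrays. LPS + 6-MP cultures had 50 µM 6-MP for 16 h and then 10 ng/ml LPS for 6 h, LPS cultures had LPS alone for 6 h at that dose, 6-MP cultures had 6-MP alone at 50 µM, and control cultures had neither. Each group holds 3 arrays, from independent experiments according to the methods.

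Chemokines are small proteins that attract and position cells through receptors coupled to G proteins. The homeostatic ones, such as CXCL12 and CXCL13, are made in resting tissue and guide developing cells or place lymphocytes, whereas most others are made during inflammation. CXCL16 and CX3CL1 (fractalkine) are built as membrane proteins with the chemokine domain on a stalk, and the proteases ADAM10 and ADAM17 release them from the cell surface. CXCL12 signals through CXCR4 and is taken up by ACKR3 (CXCR7), a receptor that does not signal through G proteins.

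The deposited values are log2 values, with array medians of 7.41 to 7.53. All 7 genes lay on all 12 arrays above 5.78, taken as the level of silent genes because 90% of 1450 clusters of genes for olfactory, taste and vomeronasal receptors were under it. On principal component 2, which held 25.0% of the variance, 1 array of each group stood apart from the other 8 arrays, namely LPS + 6-MP 1, LPS 2, 6-MP 1 and control 2. Of 11 measured neuronal marker genes 10 lay above 5.78 on average, and of 7 glial ones 4 did, Sox10, S100b and Foxd3 being under it. All 8 smooth muscle, all 9 mesenchymal, all 9 macrophage and all 8 epithelial marker genes were above it, whereas 6 of 7 lymphoid ones were under it. Of 17 genes of inflammatory chemokines 16 were called higher with LPS, with a median log2 change of 5.63.

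LPS lowered the receptor gene Cxcr4 and left the other 6 genes short of the criteria used for a call, an adjusted p under 0.05 from limma over all clusters and a fold of at least 2. Over all 12 arrays Cxcr4 fell 2.17-fold with LPS (mean of both LPS comparisons, log2 change -1.12, SE 0.22, adjusted p = 0.00983). It was the 1 of 7 genes called in this mean of LPS minus control and LPS + 6-MP minus 6-MP, a comparison in which 2.08% of all clusters were called in either direction and 0.221% lower. Cxcl16 was the gene with the largest increase (log2 change 1.00, SE 0.26), at an adjusted p of 0.0587. In bulk arrays a lower value from fewer cells of a type and one from less RNA per cell cannot be told apart.

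**Figure D1:**
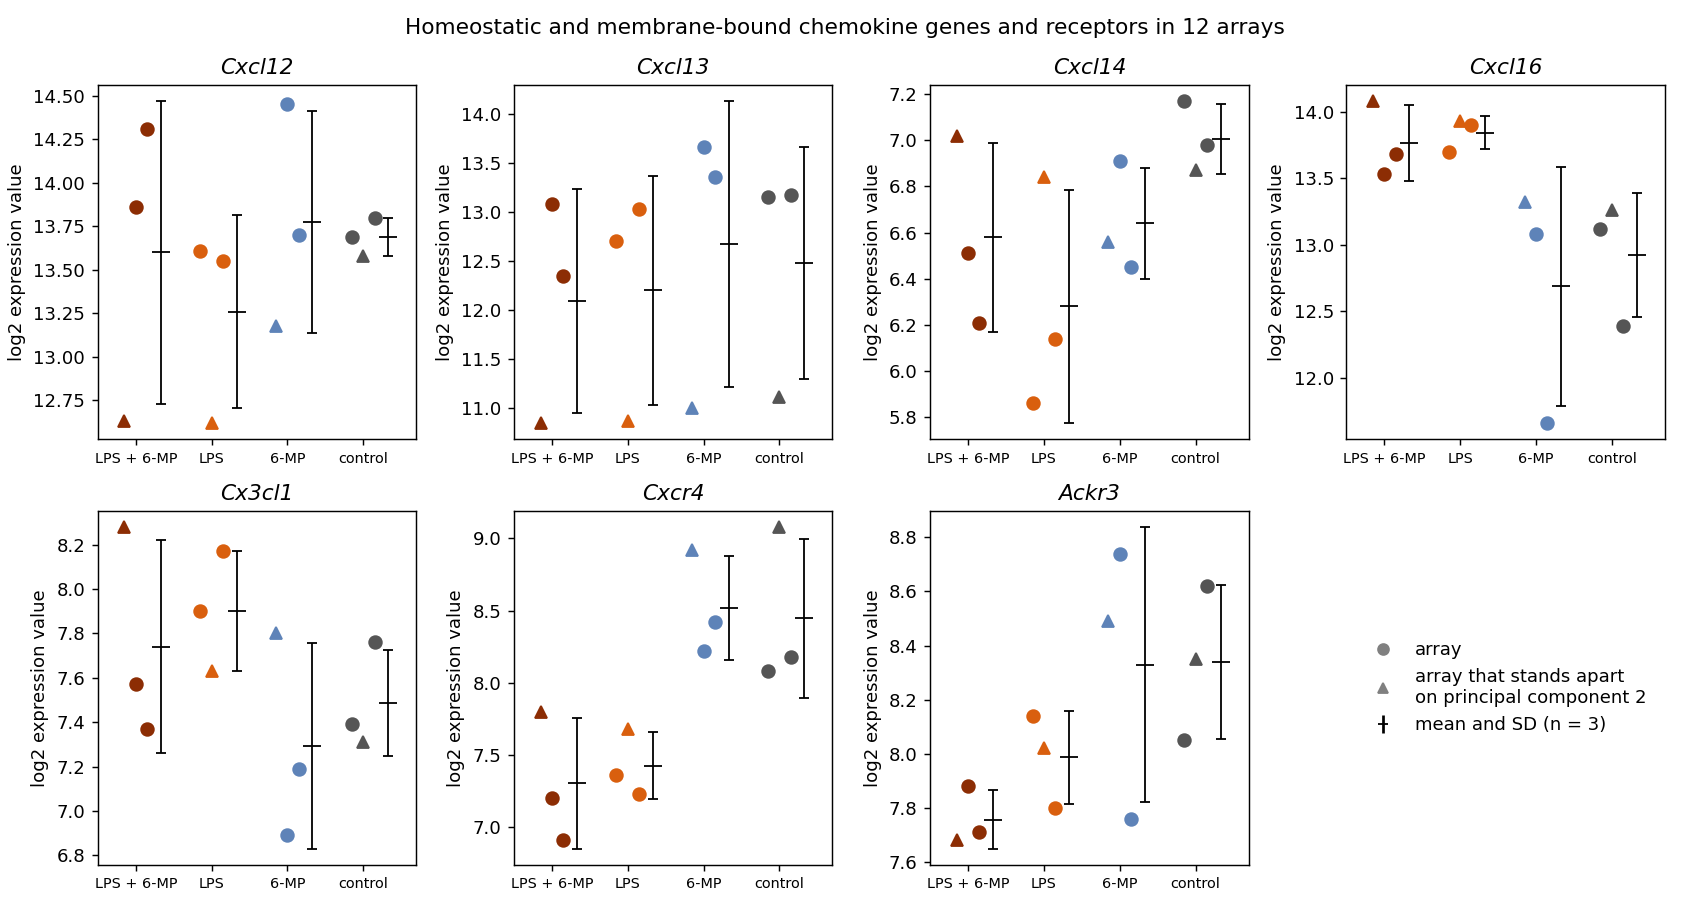
Log2 expression value (vertical axis, a separate scale for each gene) of the 7 genes on each array of the LPS + 6-MP, LPS, 6-MP and control groups. Triangles are the 4 arrays that stand apart on principal component 2, and bars give mean and SD of 3 arrays. For Cxcr4 all 6 arrays with LPS (6.91 to 7.80) lie below all 6 without it (8.08 to 9.08), and for Cxcl13 the triangle is the lowest point of every group.

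Cxcr4 (transcript cluster TC0100003029.mm.2) encodes the signalling receptor of CXCL12. Its log2 values were 7.36, 7.68 and 7.23 in LPS cultures, against 8.08, 9.08 and 8.18 in control cultures. After 6-MP they were 7.80, 7.20 and 6.91 in LPS + 6-MP cultures, against 8.92, 8.22 and 8.42 in 6-MP cultures. Every array with LPS was thus lower than every array without it, which held in the lower direction for 1.52% of all clusters. The group means were 7.30 ± 0.45 in LPS + 6-MP, 7.42 ± 0.23 in LPS, 8.52 ± 0.36 in 6-MP and 8.45 ± 0.55 in control cultures (SD, n = 3 arrays each). In the order of these levels, LPS + 6-MP, LPS, control and 6-MP from low to high, the lower pair and the upper pair each differed by less than the SDs. Within the separate comparisons the change was -1.02 for LPS minus control (SE 0.31, adjusted p = 0.187) and -1.22 for LPS + 6-MP minus 6-MP (SE 0.31, adjusted p = 0.0846), and neither was called.

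The call of Cxcr4, whose change was close to 2-fold, was lost without 1 array. Without control 2, which had the highest value, the mean change was -0.96 (adjusted p = 0.0168) and so under 2-fold. Without the 4 arrays that stand apart it was -1.05 (adjusted p = 0.00301), and with these arrays as a block in the fit the adjusted p was 4.47e-05. Among the 4 arrays that stand apart alone, Cxcr4 was lower by 1.41 in LPS 2 than in control 2 and by 1.12 in LPS + 6-MP 1 than in 6-MP 1. Among the other arrays the mean differences were -0.83 for LPS minus control and -1.27 for LPS + 6-MP minus 6-MP.

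Ackr3 (transcript cluster TC0100000870.mm.2), the gene of the second CXCL12 receptor, had log2 values of 8.14, 8.02 and 7.80 in LPS cultures, against 8.05, 8.35 and 8.62 in control cultures. In LPS + 6-MP cultures they were 7.68, 7.88 and 7.71, against 8.49, 8.74 and 7.76 in 6-MP cultures. The 3 LPS + 6-MP arrays were close together, and all but 1 array with LPS lay under 8.05, but the groups overlapped in both comparisons. The mean change with LPS was -0.47 (SE 0.17, 95% interval -0.84 to -0.09, adjusted p = 0.193) and was not called. Means were 7.75 ± 0.11 in LPS + 6-MP, 7.99 ± 0.17 in LPS, 8.33 ± 0.51 in 6-MP and 8.34 ± 0.29 in control cultures. The means of 6-MP and control and those of LPS and 6-MP did not differ beyond the larger SD. The difference of 0.23 between LPS + 6-MP and LPS exceeded both SDs but was not called.

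Promoters, the 250 bases before a transcript's start, were read from RefSeq on GRCm38.p6 by gene symbol for 6 of the 7 genes, all but Cxcl16. Those of Cxcr4, the gene called, Ackr3, which binds the same ligand, and Cxcl13, the gene that varied most between arrays of a group, are shown 5′ to 3′ on the strand of the gene. They lie at chr1:128592300-128592549 on the minus strand, chr1:90203730-90203979 on the plus strand and chr5:95956689-95956938 on the plus strand. Capitals mark TATAAA, the letters of a TATA box, on the strand of the gene.
Cxcr4: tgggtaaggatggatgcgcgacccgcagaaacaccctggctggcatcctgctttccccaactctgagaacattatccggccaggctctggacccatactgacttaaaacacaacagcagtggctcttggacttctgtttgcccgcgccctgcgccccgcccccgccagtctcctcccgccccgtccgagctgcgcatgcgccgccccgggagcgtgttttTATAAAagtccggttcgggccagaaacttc
Ackr3: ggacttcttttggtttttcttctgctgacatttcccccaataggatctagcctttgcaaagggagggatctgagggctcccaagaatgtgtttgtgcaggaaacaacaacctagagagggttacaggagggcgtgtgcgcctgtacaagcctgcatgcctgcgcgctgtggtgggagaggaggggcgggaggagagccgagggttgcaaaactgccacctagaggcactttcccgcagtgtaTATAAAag
Cxcl13: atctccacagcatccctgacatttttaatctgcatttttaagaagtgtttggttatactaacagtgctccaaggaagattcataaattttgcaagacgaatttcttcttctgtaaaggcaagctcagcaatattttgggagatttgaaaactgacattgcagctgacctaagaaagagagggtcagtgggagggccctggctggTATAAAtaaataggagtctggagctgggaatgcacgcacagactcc
The marked TATAAA begins 30 bases before the start in Cxcr4, 8 bases before it in Ackr3 and 46 bases before it in Cxcl13. Cxcr4 also holds it on the other strand, where it overlaps the marked copy. Among the 6 genes Cx3cl1 has the same letters 6 bases before its start, while Cxcl12 and Cxcl14 have none. The start used for Cxcl14 lies 260 bases inside the gene as RefSeq lists it, so its window is within the gene, whereas those of the other 5 end at the listed start. On either strand 12.4% of 32851 promoters of that length hold TATAAA. Neither the NF-kB consensus (7.25% of promoters) nor the AP-1 letters TGACTCA (4.46%) were found on either strand in the 6 windows. These are matches of letters and were not tested as binding sites.

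Cxcl12 (transcript cluster TC0600001313.mm.2), whose product holds and guides CXCR4-bearing cells, had log2 values of 13.61, 12.62 and 13.55 in LPS cultures, against 13.69, 13.58 and 13.80 in control cultures. After 6-MP they were 12.63, 13.86 and 14.31 in LPS + 6-MP cultures, against 13.18, 14.45 and 13.70 in 6-MP cultures. The control arrays lay close together, and in all 4 groups the array that stands apart was the lowest. The mean LPS change was -0.31 (SE 0.30, 95% interval -0.96 to 0.35, adjusted p = 0.695). It ran from -0.48 without LPS + 6-MP 3 to -0.06 without LPS + 6-MP 1 when single arrays were left out, and was -0.08 without the 4 arrays that stand apart. Group means were 13.60 ± 0.87 in LPS + 6-MP, 13.26 ± 0.56 in LPS, 13.78 ± 0.64 in 6-MP and 13.69 ± 0.11 in control cultures, with no neighbours in the order of levels that differed beyond the SDs.

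Cxcl13 (transcript cluster TC0500000922.mm.2) encodes the ligand of CXCR5 that draws B cells into follicles. Its log2 values were 12.70, 10.87 and 13.03 in LPS cultures, against 13.15, 11.12 and 13.17 in control cultures. In LPS + 6-MP cultures they were 10.85, 13.08 and 12.35, against 11.0, 13.66 and 13.36 in 6-MP cultures. The low array of each group was the one that stands apart, at 10.85 to 11.12, while the other 8 arrays lay at 12.35 to 13.66. With SDs of 1.14 to 1.46, the mean LPS change of -0.43 had an SE of 0.59 (95% interval -1.70 to 0.84, adjusted p = 0.801), and the group means (12.09 in LPS + 6-MP, 12.20 in LPS, 12.67 in 6-MP and 12.48 in control cultures) did not differ beyond their spread.

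Cxcl14 (transcript cluster TC1300002079.mm.2), a chemokine gene of epithelia and connective tissue, had log2 values of 5.86, 6.84 and 6.14 in LPS cultures, against 7.17, 6.87 and 6.98 in control cultures. After 6-MP they were 7.02, 6.51 and 6.21 in LPS + 6-MP cultures, against 6.56, 6.91 and 6.45 in 6-MP cultures. All LPS arrays were lower than all control arrays, which 8.18% of clusters also showed, whereas LPS + 6-MP and 6-MP arrays overlapped. The change was -0.73 for LPS minus control (SE 0.27, adjusted p = 0.377) and -0.06 for LPS + 6-MP minus 6-MP (SE 0.27, adjusted p = 0.964). The difference between these changes, 0.66, was not called either (SE 0.38, 95% interval -0.17 to 1.49, adjusted p = 1). Without the 4 arrays that stand apart the mean LPS change was -0.70 (adjusted p = 0.0498), against -0.39 over all arrays (adjusted p = 0.338). Means were 6.58 ± 0.41 in LPS + 6-MP, 6.28 ± 0.51 in LPS, 6.64 ± 0.24 in 6-MP and 7.01 ± 0.15 in control cultures. Of neighbours in the order of levels, 6-MP lay below control by more than either SD (change -0.36), though their arrays overlapped. No difference between neighbours was called.

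Cxcl16 (transcript cluster TC1100003097.mm.2) encodes a membrane-bound chemokine that also acts as a scavenger receptor for oxidized lipoprotein, and its shed form attracts CXCR6-bearing T cells. Its log2 values were 13.70, 13.93 and 13.90 in LPS cultures, against 13.12, 13.26 and 12.39 in control cultures. In LPS + 6-MP cultures they were 14.08, 13.53 and 13.68, against 13.32, 13.08 and 11.66 in 6-MP cultures. All 6 arrays with LPS were above all 6 without it, an ordering that 2.39% of clusters showed in the higher direction, and array 3 of 6-MP and of control were the lowest. The mean LPS change was 1.00 (95% interval 0.42 to 1.57, adjusted p = 0.0587), made of 0.92 for LPS minus control (SE 0.37, adjusted p = 0.45) and 1.08 for LPS + 6-MP minus 6-MP (SE 0.37, adjusted p = 0.266). Without 6-MP 1, the highest array without LPS, the mean change was 1.16 at an adjusted p of 0.0282 and was called, whereas it was 0.74 without 6-MP 3, the lowest array (adjusted p = 0.0546), and 0.86 without control 3 (adjusted p = 0.137). Without 6-MP 3 the change in LPS + 6-MP minus 6-MP was 0.57 (adjusted p = 0.535). With the 4 arrays that stand apart as a block the adjusted p was 0.0148, but the fold of 1.999 stayed under the limit of 2. Means were 13.76 ± 0.28 in LPS + 6-MP, 13.84 ± 0.13 in LPS, 12.68 ± 0.90 in 6-MP and 12.92 ± 0.47 in control cultures, and neither the upper nor the lower pair of neighbours differed beyond the SDs.

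Cx3cl1 (transcript cluster TC0800001119.mm.2), the other membrane-bound ligand gene, whose product is known from neurons and endothelium and acts on CX3CR1 of microglia and macrophages, had log2 values of 7.90, 7.63 and 8.17 in LPS cultures, against 7.39, 7.31 and 7.76 in control cultures. After 6-MP they were 8.28, 7.57 and 7.37 in LPS + 6-MP cultures, against 7.80, 6.89 and 7.19 in 6-MP cultures. The groups overlapped in each comparison by 1 array or more. The mean LPS change was 0.43 (SE 0.20, 95% interval -0.01 to 0.86, adjusted p = 0.318). The means, 7.74 ± 0.48 in LPS + 6-MP, 7.90 ± 0.27 in LPS, 7.29 ± 0.46 in 6-MP and 7.49 ± 0.24 in control cultures, lay in an order in which no neighbours differed beyond the larger SD.

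**Figure D2:**
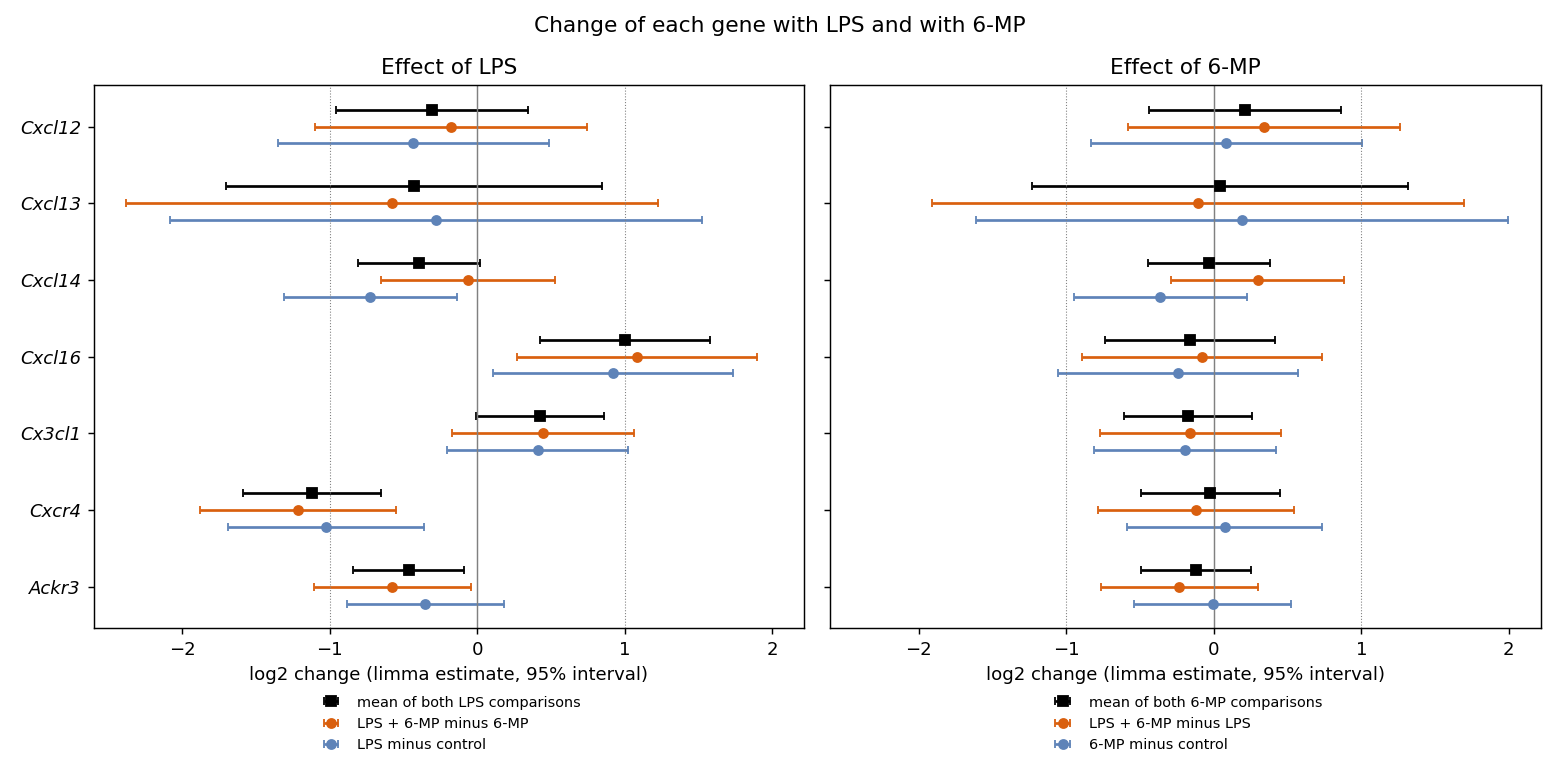
Log2 change of each gene with LPS (left) and with 6-MP (right), as limma estimates with 95% intervals (horizontal axis), squares being the mean of both comparisons and dots the single ones. Dotted lines mark a 2-fold change, and the interval of Cxcr4 for the mean effect of LPS runs from -1.59 to -0.65, while all 6-MP intervals, over all 12 arrays, include 0.

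As single comparisons, LPS minus control called 0 of the 7 genes (1.6% of all clusters) and LPS + 6-MP minus 6-MP also 0 (1.44% of clusters) by limma. At an unadjusted p under 0.05, 3 genes passed in each (9.01% of all clusters in LPS minus control and 11.2% in LPS + 6-MP minus 6-MP), Cxcr4 and Cxcl16 in both, Cxcl14 in the first and Ackr3 in the second. The methods' t-test, run on the same values, gave 1 of the 7 in each at an unadjusted p under 0.05 with the fold limit. At that threshold 472 of all clusters passed in LPS minus control and 424 in LPS + 6-MP minus 6-MP. After adjustment it gave 0 of the 7, as it gave 0 of all clusters. In both comparisons the same 5 genes had a change below 0 and the same 2, Cxcl16 and Cx3cl1, a change above 0. The median change of the 7 was -0.35 for LPS minus control, beside -0.04 over all clusters, and -0.18 for LPS + 6-MP minus 6-MP, beside -0.03.

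6-MP changed none of the 7 genes past a threshold. By limma 0 genes were called for 6-MP minus control, for LPS + 6-MP minus LPS, for their mean and for the interaction of LPS and 6-MP, comparisons in which 0% of all clusters were called. At an unadjusted p under 0.05 the count was 0 of 7 in each as well, where 2.13% of all clusters passed in 6-MP minus control, 3.6% in LPS + 6-MP minus LPS, 3.81% in their mean and 1.95% in the interaction. The methods' t-test gave 0 of 7 in both single comparisons, with or without the fold limit. With that limit, 5 of all clusters passed it in 6-MP minus control and 18 in LPS + 6-MP minus LPS. The changes ran from -0.36 for Cxcl14 to 0.19 for Cxcl13 in 6-MP minus control, and from -0.23 for Ackr3 to 0.34 for Cxcl12 in LPS + 6-MP minus LPS. The 95% interval of the mean 6-MP change was -0.49 to 0.45 for Cxcr4, -0.50 to 0.26 for Ackr3 and -0.74 to 0.41 for Cxcl16. It was -0.61 to 0.26 for Cx3cl1, -0.45 to 0.38 for Cxcl14, -0.44 to 0.86 for Cxcl12 and -1.23 to 1.32 for Cxcl13, so that a change of more than 2-fold lay outside it for all of them except Cxcl13. These intervals are over all arrays. Without the 4 arrays that stand apart the mean 6-MP change of Cx3cl1 was -0.55 (SE 0.16, adjusted p = 0.743), against -0.18 over all arrays, and that of Cxcl12 was 0.42 (SE 0.20, adjusted p = 0.815), against 0.21, and neither was called. For Cxcr4 the LPS change with 6-MP differed from that without it by -0.19 (95% interval -1.13 to 0.75), and for Cxcl16 by 0.16 (-0.99 to 1.31).

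The arrays that stand apart differed from the others of their groups in several of the genes. Their value minus the mean of the other 2 arrays of the same group averaged -2.10 for Cxcl13, with -1.86 in LPS + 6-MP 1, -1.99 in LPS 2, -2.51 in 6-MP 1 and -2.04 in control 2. Of all 22206 clusters 14 (0.063%) had a mean difference as low as this. Cxcl12 was also lower in all 4, by 0.16 in control 2 and by up to 1.45 in LPS + 6-MP 1, with a mean of -0.87. Cxcr4 was higher in all 4 (mean 0.67, range 0.38 to 0.95), as was Cxcl16 (mean 0.52, range 0.14 to 0.95). Cxcl14 (mean 0.30) and Cx3cl1 (0.23) were higher in some and lower in others of these arrays, and Ackr3 hardly differed (0.04). The share of all clusters with the same direction in all 4 arrays was not counted. The 4 arrays were themselves picked by a component of all clusters.

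**Figure D3:**
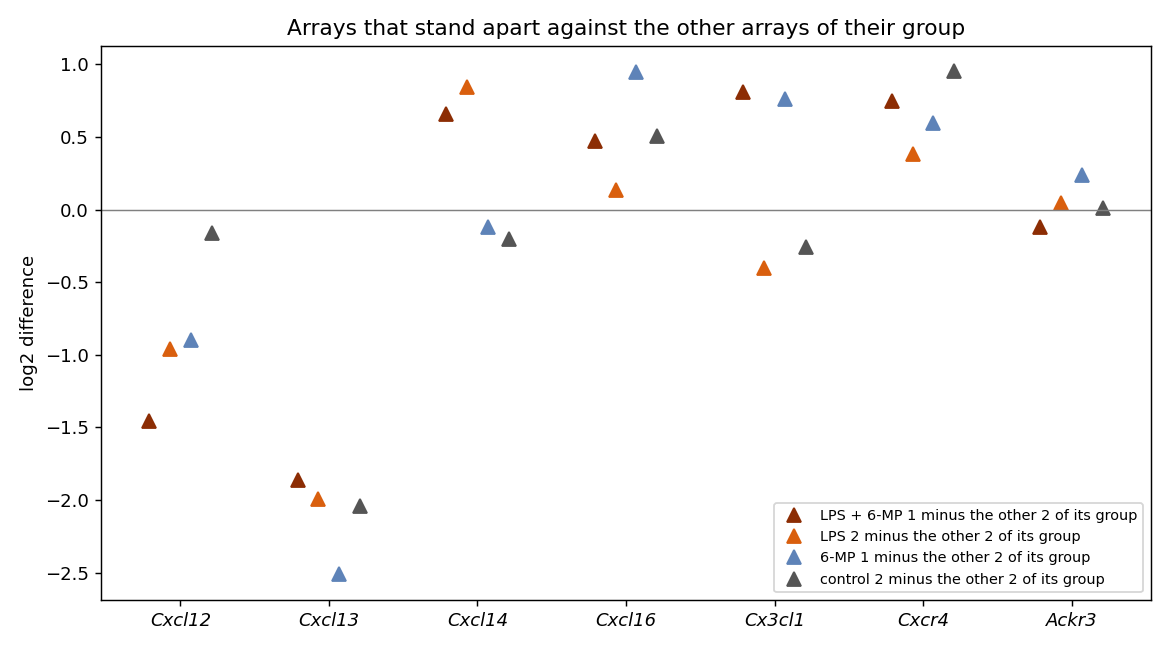
Log2 value of each of the 4 arrays that stand apart minus the mean of the other 2 arrays of its group (vertical axis) for the 7 genes. The 4 points of Cxcl13 lie between -2.51 and -1.86 and those of Cxcl12 below 0, while those of Cxcr4 and Cxcl16 lie above 0.

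In the same arrays the mean of the smooth muscle genes was lower by 1.47, that of the mesenchymal genes by 0.58 and that of the macrophage genes by 0.39. The mean of the neuronal genes was higher by 0.76, that of the epithelial genes by 0.82 and that of 19 interferon-stimulated genes by 1.61. The component was computed from all clusters, these genes among them, so the values describe the arrays and are no test, and the part of these cell types in the values of Cxcl12 and Cxcl13 was not tested.

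The receptors of the ligands, with Ackr4, a scavenging receptor, as the sixth of the list, were called lower with LPS in 2 cases of 6. These were Cxcr4 and Cx3cr1, where 0.221% of all clusters were called lower, and Cxcr4 and Ackr3 are also among the 7 genes. The median change over the list was -0.20, beside -0.03 over all clusters. Cx3cr1, the fractalkine receptor gene of macrophages and microglia, had log2 values of 4.87, 3.71 and 4.0 in LPS cultures, against 8.14, 6.22 and 6.41 in control cultures. In LPS + 6-MP cultures they were 4.44, 4.01 and 4.85, against 5.41, 7.33 and 6.56 in 6-MP cultures. All arrays with LPS were thus under 5.78 and lower than all arrays without it. This ordering was shown by 1.52% of clusters in the lower direction. With values under 5.78 raised to it, the fall over both LPS comparisons was 1.95-fold, under the 2-fold limit. The array 6-MP 1, at 5.41 without LPS, was raised too, so this fold is not a lower bound. The call in the mean of both LPS comparisons came from the values as deposited, those under 5.78 included (adjusted p = 0.00289 from limma). It held in each of 12 fits that left out 1 array, with adjusted p values up to 0.0108. Singly, LPS minus control was called (adjusted p = 0.0213), with a lower bound of 2.22-fold, as all control arrays were above 5.78. LPS + 6-MP minus 6-MP was not called (adjusted p = 0.124, 1.72-fold with the values raised, 6-MP 1 among them). Cxcr5, the receptor gene of CXCL13, Cxcr6, that of CXCL16, and Ackr4 had means under 5.78 in all 4 groups, and none was called.

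Of 9 measured macrophage genes 2 were called lower with LPS, where 0.221% of all clusters were called lower. The 2 were the complement gene C1qa (log2 change -1.14, adjusted p = 0.0411) and the phagocytic receptor gene Mertk (-1.07, adjusted p = 0.0253), with a list median of -0.70. Both calls were lost in most fits that left out 1 array, C1qa in 9 and Mertk in 8 of 12, and that of C1qa also without the 4 arrays that stand apart (adjusted p = 0.0554). At an unadjusted p under 0.05 from limma, 7 of the 9 genes passed in either direction, as did 16.2% of all clusters. All but Adgre1 had a change below 0, among them Mrc1 (-1.05, adjusted p = 0.0613) and Tyrobp (-0.59, adjusted p = 0.0559), which were not called. Adgre1, the gene of the macrophage antigen F4/80, changed by 0.80 in the other direction (adjusted p = 0.0411) and stayed under 2-fold. Fcgr1, an immunoglobulin receptor gene, changed by -0.14 (adjusted p = 0.812). The summed level of the list, as log2 of the summed linear values, ran from 12.38 to 12.96 in LPS + 6-MP, 12.49 to 13.04 in LPS, 12.88 to 13.46 in 6-MP and 13.18 to 14.24 in control cultures. No macrophage marker lay under 5.78 on average.

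Other cell types that can carry Cxcr4 were read in the same way. Of 9 endothelial genes 0 were called (2 at an unadjusted p under 0.05, as were 16.2% of all clusters), and their summed level ran from 9.18 to 9.70 in LPS + 6-MP, 9.47 to 9.58 in LPS, 9.49 to 10.17 in 6-MP and 9.73 to 10.10 in control cultures. Of 7 lymphoid genes 0 were called (1 at an unadjusted p under 0.05), and all but Il7r were under 5.78, among them the T cell gene Cd3e and the B cell genes Cd79a and Ms4a1. Of 7 glial genes 2 were called lower (2 at an unadjusted p under 0.05), where 0.221% of all clusters were called lower. These were the fatty acid-binding protein gene Fabp7 (log2 change -1.51, adjusted p = 0.00489) and the cadherin gene Cdh19 (-1.05, adjusted p = 0.00286). Cdh19 fell under the 2-fold limit in 4 of the 12 fits without 1 array. Neither was called without the 4 arrays that stand apart, where Fabp7 changed by -1.36 (adjusted p = 0.0523) and Cdh19 by -0.89 (adjusted p = 0.0093). The summed glial level ran from 10.02 to 10.86 in LPS + 6-MP, 10.52 to 11.13 in LPS, 10.97 to 11.66 in 6-MP and 11.23 to 11.94 in control cultures. Of 11 neuronal, 8 smooth muscle and 8 epithelial genes 0 were called (0, 0 and 2 at an unadjusted p under 0.05). All 8 epithelial genes nevertheless had a mean LPS change below 0, from -0.58 to -0.22. The list median was -0.46 for epithelial, -0.09 for neuronal and 0.08 for smooth muscle genes, beside -0.03 over all clusters. Of 9 mesenchymal genes 1 was called lower (2 at an unadjusted p under 0.05), beside the same 0.221% of all clusters. It was the transcription factor gene Tcf21 (-1.18, adjusted p = 0.000175). The part of these cell types in the fall of Cxcr4 and Cx3cr1 was not tested.

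Of 15 measured genes that process the membrane-bound ligands or carry the receptors' signal, 1 was called higher with LPS. In that comparison 2.08% of all clusters were called in either direction. At an unadjusted p under 0.05 from limma 4 of the 15 passed, as did 16.2% of all clusters. The gene called was Rhbdf2, whose product iRhom2 brings ADAM17 to the cell surface. It had means of 9.07 ± 0.08 in LPS cultures, against 7.39 ± 0.43 in control cultures, and of 8.80 ± 0.37 in LPS + 6-MP cultures, against 7.81 ± 0.17 in 6-MP cultures (SD, n = 3 arrays each). All 6 arrays with LPS (8.57 to 9.23) lay above all 6 without it (6.92 to 7.99), as in 2.39% of clusters. The mean change was 1.33 (SE 0.17, adjusted p = 0.000386 by limma). Singly, LPS minus control was called (1.68, adjusted p = 0.00212), while LPS + 6-MP minus 6-MP was not (0.99, adjusted p = 0.0689). The protease gene Adam17 changed by 0.49 (adjusted p = 0.0678) and Adam10 by -0.22 (adjusted p = 0.418). Grk5, a kinase gene whose product phosphorylates activated receptors, changed by 1.23 with an SE of 0.36 (adjusted p = 0.0922). The list median was -0.05, beside -0.03 over all clusters.

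Among 11 measured genes of other homeostatic chemokines and their receptors, such as Ccl25, Ccl27a and Ccl28 of mucosa and skin and the lymph node genes Ccl19, Ccl21a and Ccr7, 0 were called by limma (0 at an unadjusted p under 0.05). Of these 5 (Ccl19, Ccr9, Ccr10, Cxcl15 and Cxcl17) lay on average under 5.78, so that no change could be read for them, and the other 6 changed by -0.15 for Ccl27a to 0.31 for Ccr7. Of 17 inflammatory chemokine genes in the same arrays 16 rose, from 1.85 for Ccl20 to 8.13 for Cxcl2 on the log2 scale, and the remaining one, Ccl8, had means under 5.78 in all 4 groups and gave no readable change.

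**Figure D4:**
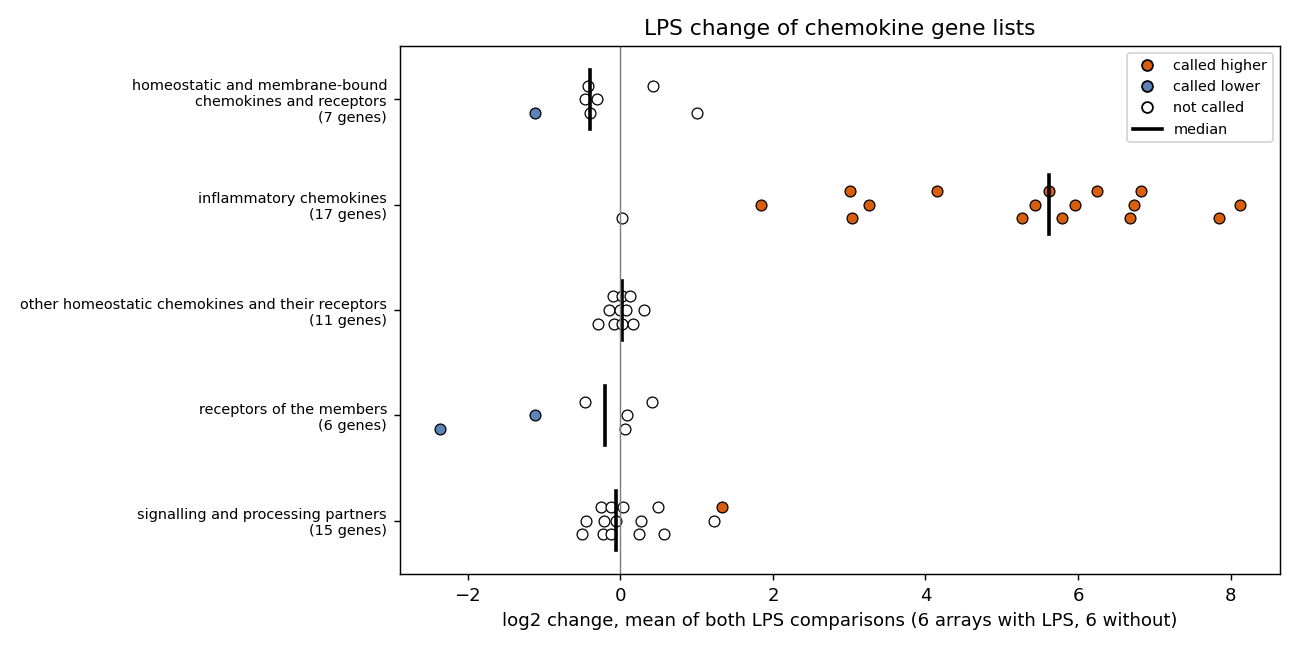
Log2 change with LPS (horizontal axis, mean of both LPS comparisons over 6 arrays with and 6 without LPS) of the single genes of 5 lists, with the list median as a bar and called genes filled and genes under 5.78 drawn at their fitted values. The 7 homeostatic and membrane-bound genes lie between -1.12 and 1.00, while 16 of 17 inflammatory chemokines lie between 1.85 and 8.13.

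The genes whose values over the 12 arrays followed those of each gene most closely were named by Pearson's r among 13432 clusters with a symbol and a mean above 5.78. For Cxcr4 they were Dbp, a clock-controlled transcription factor gene (r = 0.944), Anp32a (0.931) and Tmem205 (0.928), and for Ackr3 Mapk8ip1 (0.898), Gadd45gip1 (0.895) and Rsph9 (0.869). For Cxcl16 they were Spidr (0.969), Ifrd1 (0.950) and AW112010 (0.941), and for Cx3cl1 Safb2 (0.853), Cstad (0.851) and Bcr (0.850). For Cxcl12 they were Tenm3 (0.966), Rhobtb3 (0.961) and Zfp9 (0.959), for Cxcl13 Tm9sf3 (0.979), Prm1 (0.975) and Hip1 (0.968), and for Cxcl14 Tmprss9 (0.897), Cyp2c65 (0.862) and Zfp672 (0.860). The arrays share groups and the pattern of the arrays that stand apart, so these values are a description. The correlation was taken with the LPS difference left in, so a shared LPS change follows from how the genes were picked. Of the genes like Cxcr4, Dbp changed with LPS by -1.41, Anp32a by -0.61 and Tmem205 by -0.56 on the log2 scale. Of those like Cxcl16, AW112010 changed by 2.40, Ifrd1 by 0.51 and Spidr by 0.44.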

How the data were processed

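RNA of mouse ENS primary cultures was hybridised to 12 Clariom S arrays, 3 for each of 4 treatment groups of the labels. Log2 values per transcript cluster were deposited by the authors, made with the Transcriptome Analysis Console 4.0.1.36. The normalization and the genome build are not given in the sources used here. Scanner files were not used here, so background could be read only from the deposited values, and precision is limited by there being 3 arrays a group. After removal of 6640 control entries from 28846, the 22206 clusters were tested without a filter. Of these, 19572 have 1 symbol in the platform's table. Limma 3.58.1 in R 4.3.3 was fitted to 4 group means with 8 residual degrees of freedom, and adjustment followed Benjamini and Hochberg across the clusters. Calls needed an adjusted p under 0.05 with a fold of 2 or more. The smallest p of an exact permutation of 3 arrays against 3 is 0.1. The methods' t-test, stated for other data, was an alternative. The 7 genes, the gene lists and the tests were chosen with earlier results of these data known. The text names all 7 genes, every receptor of the list, list genes that were called, and for each gene the 3 closest by correlation. Adgre1, Adam10, Adam17, Grk5, Dbp, AW112010 and other list genes are examples chosen after their values were seen. As a check of the code, the fit was run on simulated data with known changes and independent noise for each cluster. Those data lack the pattern of the arrays that stand apart, so they do not bear on it. The replicate numbers do not pair arrays, as 6 of 18 pairs of the same number correlated over 0.1 in their deviations from the group means (-0.454 to 0.596).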

Additional observations from a re-analysis of the deposited data

How the results depend on the processing

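Of 537 changes of single genes among the 7 recomputed under other settings, 510 kept their direction and side of the threshold, 18 turned their sign, 8 were newly called and 1 lost its call. Of 262 counts of calls recomputed, 242 stayed within 1.5 times the count reported and 20 did not. In the mean of both LPS comparisons, the number of the 7 genes called ran from 0 (without control 2) to 2 (without 6-MP 1) when single arrays were left out, against 1 over all arrays. In LPS + 6-MP minus 6-MP it ran from 0 to 1 when single arrays were left out (1, Cxcr4 at -1.46 and an adjusted p of 0.0423, without LPS + 6-MP 1), and in LPS minus control it stayed at 0. Without the 4 arrays that stand apart it was 1 in LPS + 6-MP minus 6-MP (Cxcr4, -1.27, adjusted p = 0.0145), and with these arrays as a block it was 1 in LPS minus control (adjusted p = 0.00316) and 1 in LPS + 6-MP minus 6-MP (adjusted p = 0.000923), Cxcr4 each time. At an unadjusted p under 0.05 with the fold limit it was 1 in LPS minus control and 2 in LPS + 6-MP minus 6-MP. Changes near 0 turned their sign, and the causes were not tested: in LPS + 6-MP minus 6-MP Cxcl12 was 0.0084 without the 4 arrays and ran from -0.53 to 0.31 when single arrays were left out, Cxcl13 from -1.42 to 0.0397 and Cxcl14 from -0.28 to 0.12. Cxcl13 ran from -0.96 to 0.39 in LPS minus control, from -0.49 to 1.03 in 6-MP minus control and from -1.14 to 0.38 in the interaction, and Cxcl12 from -0.0143 to 0.83 in LPS + 6-MP minus LPS. Over all clusters, LPS + 6-MP minus 6-MP called 320, against 202 with only the compared groups in the fit and 192 without 6-MP 3. At an unadjusted p under 0.05 with the fold limit, LPS minus control called 554 and LPS + 6-MP minus 6-MP 546, against 356 and 320 by the adjusted p, and 6-MP minus control 14, LPS + 6-MP minus LPS 26, their mean 12 and the interaction 67, against 0 each. With no limit on the fold the mean of both LPS comparisons called 885 clusters, against 461, and with the 4 arrays as a block the mean of both 6-MP comparisons called 2, against 0. The methods' t-test called 0 clusters after adjustment in both LPS comparisons (lowest adjusted p = 0.0612 and 0.195) and 472 and 424 at its unadjusted threshold. The replicate numbers do not pair the arrays (the closest array of another group had the same number in 8 of 36 cases). With the replicate block the mean LPS change of Cxcr4 had an adjusted p of 0.0153 and that of Cxcl16 of 0.0423 and the numbers of the 7 genes called did not change. The fits of list genes without single arrays were chosen after seeing the data.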

Other observations

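With the group means removed, so that only differences between arrays of a group remain, the genes closest to each gene were partly different. Zfp9 (r = 0.986), Ppp1r14b (0.983) and Ldlrad4 (0.982) were then closest to Cxcl12. Slc16a4 (0.994), a transporter gene, Flna (0.991), the gene of the actin-binding protein filamin A, and Cthrc1 (0.983), a gene of the connective tissue matrix, were closest to Cxcl13. In the arrays that stand apart Slc16a4 was lower by a mean of 2.08, Cthrc1 by 1.49 and Flna by 1.14 on the log2 scale, as Cxcl13 was by 2.10. For Cxcl16 AW112010 (0.973) and Ifrd1 (0.956) came out by both measures, and for Cxcr4 none of the 3 did, with Klf4, a transcription factor gene of epithelium, at 0.963. These are descriptions over 12 arrays of 4 groups.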
